A study of Homo sapiens with 6 samples.

Results

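The cornified envelope and small proline-rich (SPRR) genes were followed here in 2 human pancreatic cancer cell lines with and without KDM6A. The group has 8 genes: SPRR1A, SPRR1B, SPRR2B, SPRR2C, SPRR3, IVL, TGM1 and CNFN. Its members were taken as every probe set annotated with one of these symbols alone, which gave 10 of 54613 probe sets and 8 of the 19775 genes with such a probe set. The group was chosen by the knockout minus control differences of these arrays, so the differences of its own members are given as a description and carry no test.

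Gene expression was measured on 6 arrays. Panc1 and BxPC3 are established lines from pancreatic ductal adenocarcinomas, bought from a repository and grown in DMEM (Panc1) or RPMI (BxPC3) with fetal bovine serum. Panc1 had 1 array of wild-type (WT) cells, labelled control, and 1 of cells with a knockout (KO) of KDM6A, a histone H3 lysine demethylase gene, and BxPC3 had 2 arrays of each. The knockout cells carried lentiCRISPR v2 with a guide against KDM6A, were exposed to puromycin and were cloned by limiting dilution. Not given in the sources used here are the number of knockout clones behind each array, any vector in the control cells, and whether BxPC3 arrays of 1 group derive from different cultures. A p-value below therefore measures only the spread between arrays, which may be technical.

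The cornified envelope is the crosslinked protein shell that replaces the plasma membrane of a keratinocyte as it completes differentiation in stratified epithelium. Involucrin (IVL) is an early scaffold protein of the shell, SPRR proteins act as cross-bridging substrates, and transglutaminase 1 (TGM1) is the membrane-bound enzyme that joins them. CNFN encodes cornifelin, a further envelope component. SPRR genes are also switched on in squamous metaplasia and in injured or inflamed simple epithelia. IVL and the SPRR genes lie on chromosome 1 in a cluster called the epidermal differentiation complex, TGM1 lies on chromosome 14 and CNFN on chromosome 19. SPRR2C is annotated by RefSeq as a transcribed pseudogene.

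The stretches before the RefSeq start sites of 4 SPRR genes that had lower values together in BxPC3 knockout cells, and of IVL, whose values differed less, are shown for comparison. Each runs 250 bases up to the start site, 5′ to 3′ on the strand of the gene, in build GRCh38.p14 from RefSeq. Capitals mark letters that match 1 of the 4 motifs searched on both strands.
SPRR1A, chr1:152983831-152984080, plus strand: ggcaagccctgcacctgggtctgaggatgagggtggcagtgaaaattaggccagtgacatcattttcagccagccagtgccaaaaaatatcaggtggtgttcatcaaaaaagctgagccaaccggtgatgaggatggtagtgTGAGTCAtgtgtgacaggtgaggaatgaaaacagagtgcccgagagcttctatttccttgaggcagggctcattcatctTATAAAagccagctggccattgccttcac
SPRR1B, chr1:153030953-153031202, plus strand: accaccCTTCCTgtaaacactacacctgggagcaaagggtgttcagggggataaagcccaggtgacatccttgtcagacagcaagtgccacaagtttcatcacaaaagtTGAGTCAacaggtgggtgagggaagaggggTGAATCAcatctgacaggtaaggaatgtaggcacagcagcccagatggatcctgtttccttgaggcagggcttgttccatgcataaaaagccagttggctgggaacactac
SPRR3, chr1:153001499-153001748, plus strand: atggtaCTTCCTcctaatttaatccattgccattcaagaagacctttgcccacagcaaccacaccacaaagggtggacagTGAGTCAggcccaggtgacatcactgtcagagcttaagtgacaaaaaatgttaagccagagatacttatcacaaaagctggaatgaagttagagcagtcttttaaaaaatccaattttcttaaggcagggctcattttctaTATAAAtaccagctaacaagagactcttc
SPRR2B, chr1:153071612-153071861, minus strand: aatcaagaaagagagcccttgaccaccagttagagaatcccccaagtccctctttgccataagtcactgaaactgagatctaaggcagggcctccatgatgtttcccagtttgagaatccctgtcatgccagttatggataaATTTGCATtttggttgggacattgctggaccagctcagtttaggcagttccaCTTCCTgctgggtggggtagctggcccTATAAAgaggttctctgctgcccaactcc
IVL, chr1:152908296-152908545, plus strand: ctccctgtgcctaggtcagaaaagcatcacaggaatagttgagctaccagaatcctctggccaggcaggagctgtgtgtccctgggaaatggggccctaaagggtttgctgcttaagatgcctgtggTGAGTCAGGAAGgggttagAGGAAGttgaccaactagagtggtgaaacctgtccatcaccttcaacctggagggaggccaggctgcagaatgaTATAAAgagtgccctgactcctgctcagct

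The motifs were TGANTCA for AP-1 (the FOS and JUN family of factors), AGGAAG for ETS factors, TATAAA for the TATA box and ATGCAAAT for octamer factors. Of the 8 members, 6 had an entry in the promoter table, those without being SPRR2C and TGM1. The AP-1 letters were found before 4 of the 6, namely SPRR1A at -108 to -102 from the start site, SPRR3 at -170 to -164, IVL at -123 to -117, and SPRR1B at both -141 to -135 and -111 to -105. Among all 35116 entries, coding and noncoding, 6.57% held them in a window of this length. SPRR2B held the octamer letters on the strand opposite the gene, printed above as their reverse complement, at -108 to -101, against 1.63% of entries, and no AP-1 letters in this window. The ETS letters were found before SPRR1B, SPRR3, SPRR2B and IVL, against 28.7% of entries, and in IVL 1 of their 2 matches shares a base with the AP-1 match. TATAAA began at -29 in SPRR1A, SPRR3 and SPRR2B and at -30 in IVL, and 10.7% of entries held it. CNFN held none of the 4 motifs. In global alignments, 71.5% to 74.1% of aligned bases were identical between pairs of SPRR1A, SPRR1B and SPRR3, and 50.2% to 65.4% between the 12 other pairs of the 6. Matching letters describe the sequence and were not measured as bound sites.

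**Figure D1:**
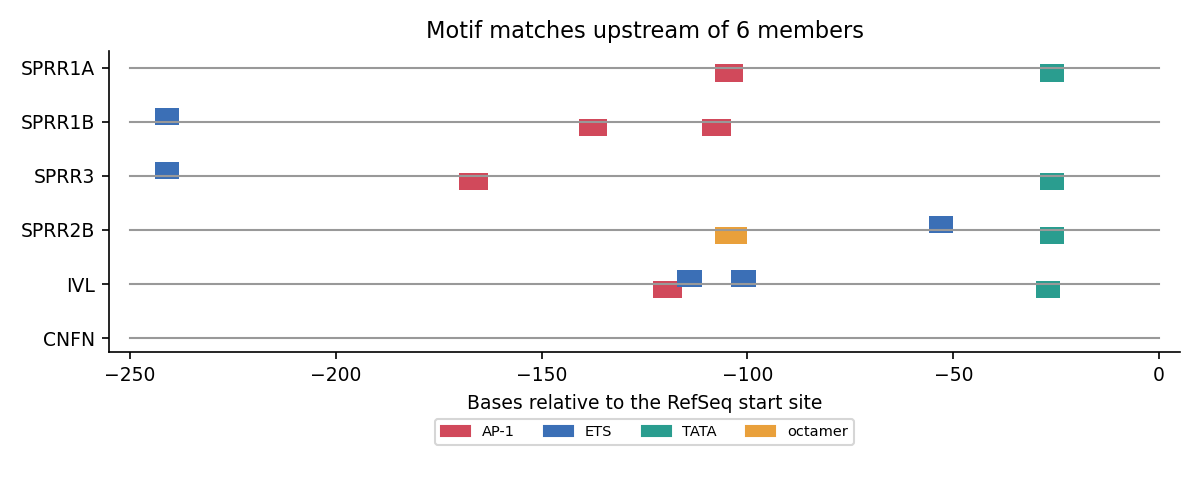
Positions of motif matches in the 250 bases before the RefSeq start sites of 6 members. The x axis gives bases relative to the start site, and each coloured box is 1 match on either strand. SPRR1B has 2 AP-1 matches, SPRR1A, SPRR3 and IVL have 1 each, and SPRR2B and CNFN have none.

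All levels are RMA summaries of a probe set on the log2 scale, and array medians ranged from 4.75 to 5.06. The BxPC3 control arrays correlated at 0.998 over all probe sets and the knockout arrays at 0.996. KDM6A, on its brightest probe set, read 8.02 and 7.85 on the BxPC3 control arrays and 7.29 and 7.01 on the knockout arrays. On the Panc1 arrays it read 6.73 in control and 4.06 in knockout cells. Its 3 other probe sets differed by -1.002, -1.003 and 0.07 in BxPC3 and by 0.18, -2.31 and 0.00 in Panc1. The last of these 3 did not exceed the median of any array. Levels were compared within a line only, because the lines may have been summarised in separate RMA runs: 2895 probe sets were exactly equal on the Panc1 arrays and 0 on any pair of arrays from different lines. In bulk RNA of this kind, fewer cells of a type and less RNA per cell cannot be told apart.

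The SPRR probe sets were bright in BxPC3 and dim in Panc1. On the BxPC3 control arrays the 7 SPRR probe sets lay between the 77.6th and the 97.7th percentile within an array. On the BxPC3 knockout arrays they lay between the 50.9th and the 95.1st percentile, and on the Panc1 arrays between the 17.5th and the 56.8th. The array median was exceeded on all 4 BxPC3 arrays by 9 of the 10 probe sets of the group and on any Panc1 array by 3, read as SPRR1A, TGM1 and CNFN. IVL was below the median on all 6 arrays. A gene was tested below where its brightest probe set exceeded the array median on at least 1 array, a filter that 7 of the 8 members passed and IVL did not.

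**Figure D2:**
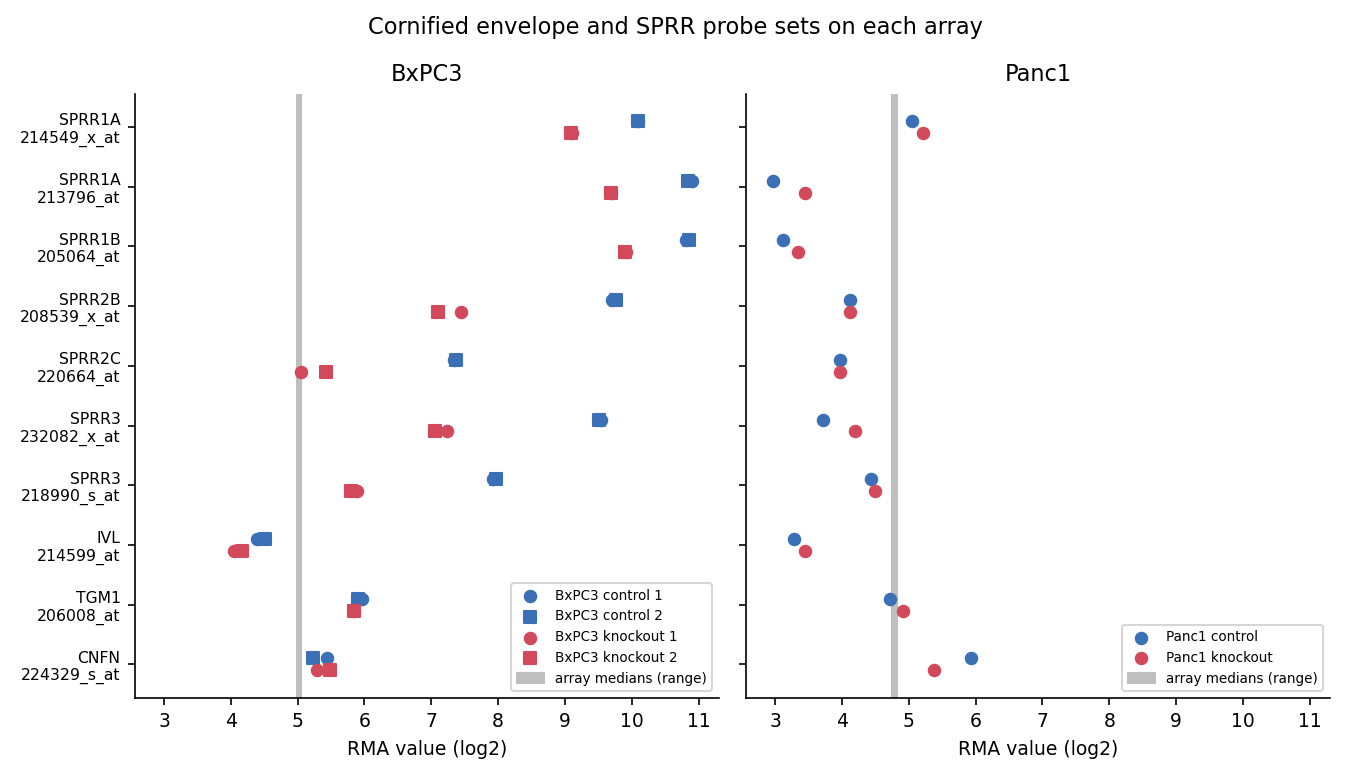
RMA values on the log2 scale (x axis) of the 10 probe sets of the 8 genes (y axis) on each array, with BxPC3 on the left and Panc1 on the right. Blue points are control and red points knockout arrays, shapes mark the arrays of a BxPC3 group, and the grey band spans the array medians of a line. The SPRR points of BxPC3 are separated by genotype, and those of Panc1 lie below the array medians except SPRR1A on 214549_x_at (5.04 and 5.21).

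SPRR1A and SPRR1B, which encode the cornifin-type SPRR proteins, were the brightest of the group on the BxPC3 arrays and kept high values in the knockout cells. SPRR1B (205064_at) read 10.81 and 10.86 on the control arrays and 9.92 and 9.89 on the knockout arrays. The difference between means was -0.93 ± 0.03 (SE, n = 2 per group), or 1.90-fold. SPRR1A on its probe set 214549_x_at read 10.09 and 10.10 in control and 9.10 and 9.09 in knockout cells, a difference of -0.997 ± 0.01. On the other, 213796_at, it read 10.90 and 10.84 in control and 9.70 and 9.69 in knockout cells, a difference of -1.18 ± 0.03. For both genes the knockout arrays lay below the control arrays by at least 0.89, against at most 0.07 between arrays of a group. The suffix _x_at marks probes that can hybridise to similar transcripts, such as those of a paralog.

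SPRR3, typical of oesophageal and other internal stratified linings, and the SPRR2 genes differed by about 2 or more on the log2 scale in BxPC3. SPRR3 on 232082_x_at read 9.53 and 9.50 in control and 7.24 and 7.05 in knockout cells, a difference of -2.37 ± 0.09, or 5.18-fold. On 218990_s_at it read 7.92 and 7.97 in control and 5.89 and 5.79 in knockout cells, a difference of -2.10 ± 0.06. Both probe sets thus gave the same direction and a gap between groups of at least 2.02. SPRR2B (208539_x_at), which may also read other SPRR2 transcripts, read 9.71 and 9.76 in control and 7.45 and 7.10 in knockout cells. Its difference was -2.46 ± 0.18, or 5.51-fold. SPRR2C (220664_at) read 7.34 and 7.38 in control and 5.05 and 5.42 in knockout cells, a difference of -2.12 ± 0.18, or 4.36-fold. The knockout arrays were farther apart from each other for the SPRR2 genes, by 0.35 and 0.36, than for SPRR1A and SPRR1B. SPRR2A, SPRR2D, SPRR2E and SPRR2F were not analysed here.

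The SPRR genes of BxPC3 therefore fell into 2 ranges of difference. Taking each knockout array against the control mean, SPRR2B, SPRR2C and SPRR3 lay between -2.64 and -1.94 and SPRR1A and SPRR1B between -1.18 and -0.92, with no overlap of the ranges. Within the first range the arrays of SPRR2B, SPRR2C and SPRR3 overlapped, so their order was not resolved by these 2 arrays. The ranges are a description of these probe sets, whose responses may differ in steepness, and the gap between them was not tested.

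The scaffold, the enzyme and cornifelin differed little. IVL (214599_at) read 4.39 and 4.52 in BxPC3 control and 4.05 and 4.16 in knockout cells, a difference of -0.34 ± 0.08 (1.27-fold). RMA understates differences of such dim probe sets. TGM1 (206008_at) read 5.96 and 5.90 in control and 5.85 and 5.85 in knockout cells, a difference of -0.08 ± 0.03. The TGM1 groups were separated by 0.05, less than the 0.07 between the control arrays. CNFN (224329_s_at) read 5.43 and 5.23 in control and 5.29 and 5.48 in knockout cells, so that its groups overlapped. Its difference was 0.05 ± 0.14.

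Counted over the group, both knockout arrays lay below both control arrays for 6 of the 7 tested members and for IVL. Among all 14387 tested genes 26.8% did so. At least 2-fold lower between means were 3 of the 8 members, SPRR2B, SPRR2C and SPRR3, against 1.06% of tested genes, and SPRR1A lay just short of it on 214549_x_at, which stands for the gene, and past it, at 2.26-fold, on 213796_at. The median difference was -0.96 over the 8 members and 0.00 over all tested genes. Since these differences were in view when the genes were grouped, nothing is read from the counts.

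In Panc1, with 1 array per group, CNFN and SPRR1A on 214549_x_at exceeded the median of both arrays and IVL and the other SPRR probe sets of neither. None of the 8 genes differed by 2-fold, as 3.86% of tested genes did (3.28% lower and 0.577% higher). SPRR1B read 3.11 in control and 3.35 in knockout cells, and SPRR3 read 3.71 and 4.20 on 232082_x_at and 4.43 and 4.50 on 218990_s_at. SPRR1A read 5.04 and 5.21 on 214549_x_at and 2.96 and 3.45 on 213796_at. The differences of SPRR1A on 213796_at and of SPRR3 on 232082_x_at were the same value (0.484156). They are therefore not read as separate rises. SPRR2B read 4.13 on both arrays and SPRR2C 3.96 on both, as exactly equal values. Such ties occurred at 2895 probe sets of the Panc1 arrays and show that the summary did not resolve a difference there. IVL read 3.28 and 3.45 and TGM1 4.72 and 4.91. CNFN was the 1 member lower on the knockout array, at 5.94 in control and 5.38 in knockout cells, a difference of -0.55. These values have no replicate check. The median Panc1 difference was 0.17 over the members and 0.00 over all tested genes.

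**Figure D3:**
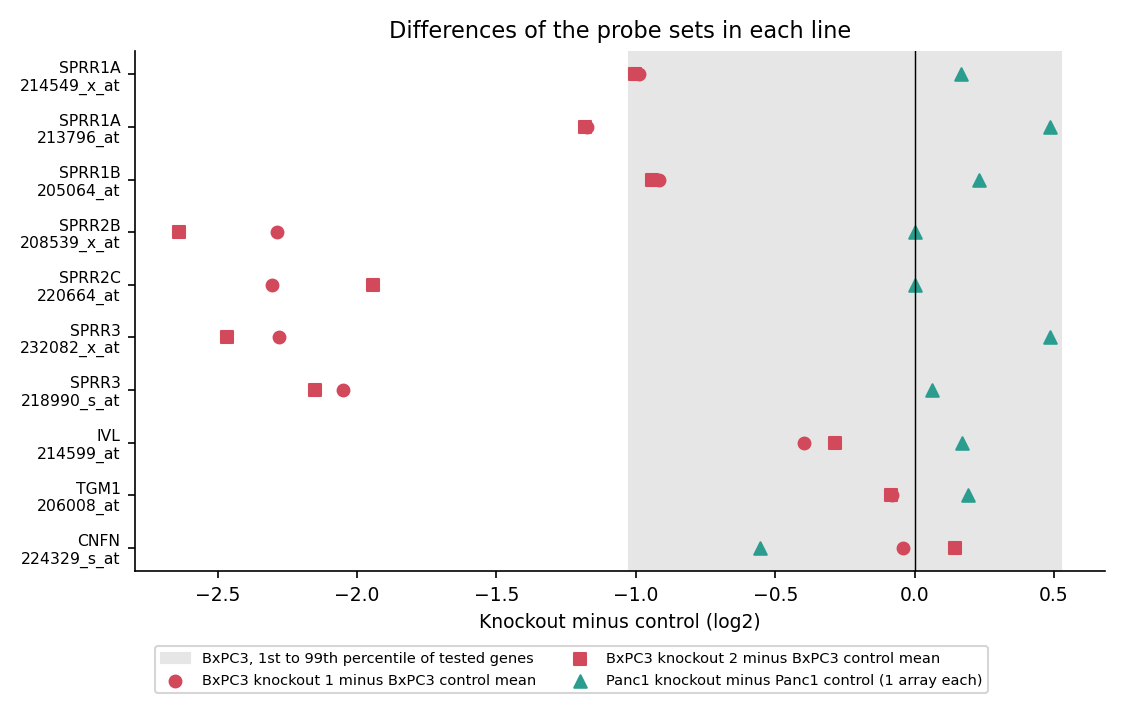
Knockout minus control differences on the log2 scale (x axis) for the 10 probe sets (y axis). Red points are each BxPC3 knockout array minus the mean of the 2 control arrays, green triangles are the Panc1 difference of 1 array each, and the grey band spans the 1st to 99th percentile of BxPC3 differences over tested genes (-1.02 to 0.52). SPRR2B, SPRR2C, SPRR3 and SPRR1A on 213796_at lie outside the band in BxPC3, and no Panc1 point lies beyond -0.55 or 0.48.

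The members of the epidermal differentiation complex were placed among their neighbours in the order of the RefSeq table. Between S100A10 and S100A1, both included, the table lists 94 genes, of which 45 were measured and 28 tested. The 5 SPRR members are the only measured genes of their stretch of 11, and all had lower values in BxPC3 knockout cells. Since they were grouped with these differences in view, their run is a description and does not show continuity. The nearest measured SPRR genes on either side did not have lower values. SPRR4 differed by 0.09 ± 0.14 (SE from limma, adjusted p = 0.788) and SPRR2G by 0.17 ± 0.07 (adjusted p = 0.286). Of the 23 tested genes of the complex outside the group, 5 fell and 0 rose in BxPC3 by limma at an adjusted p under 0.05, or 21.7% lower against 3.58% of all tested genes. At an unadjusted p under 0.05, S100A3 and S100A14 were lower and S100A1 and LCE1E higher besides. The 5 were the calgranulin and psoriasin genes S100A7 (-2.66 ± 0.08), S100A8 (-2.62 ± 0.09) and S100A9 (-2.14 ± 0.17), S100A4 (-1.05 ± 0.07) and CRNN (-0.83 ± 0.12). Another probe set of S100A8 gave only -0.35. S100A7 and S100A8 passed the brightness filter through the BxPC3 control arrays alone. In Panc1 the median difference of the 23 genes was 0.05 and 0 of them were 2-fold apart. Genes with lower values were thus interspersed with neighbours that did not pass the test, such as S100A7A (0.00 ± 0.08, adjusted p = 0.999) beside S100A7.

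**Figure D4:**
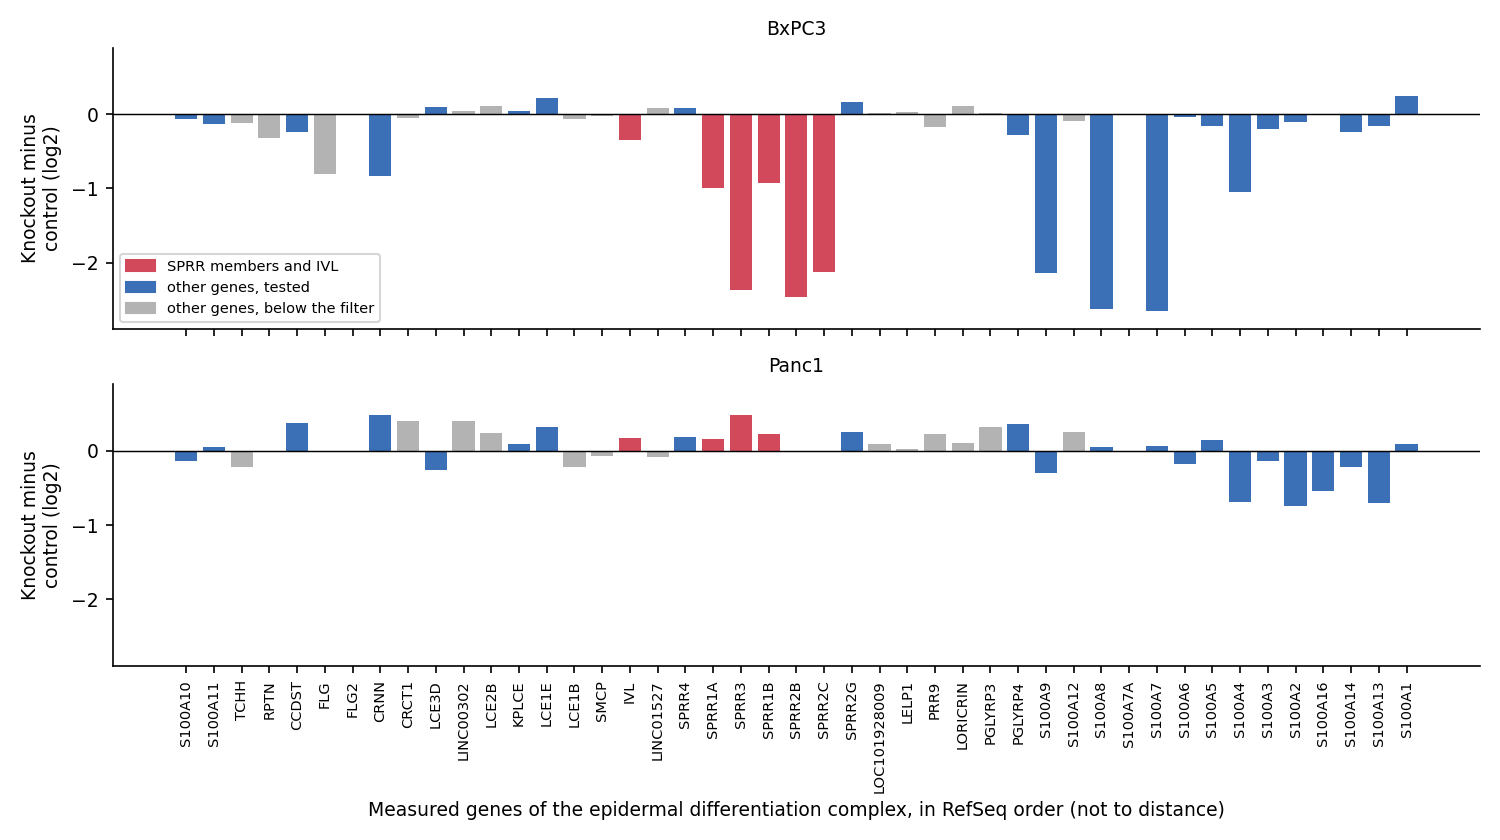
Knockout minus control differences on the log2 scale (y axis) of the 45 measured genes of the epidermal differentiation complex, in RefSeq order (x axis, not to distance), for BxPC3 above and Panc1 below. Red bars are the SPRR members and IVL, blue bars other tested genes and grey bars other genes below the brightness filter. The lower BxPC3 bars form a block at the SPRR members, which were grouped with these differences in view. They stand apart again at S100A9, S100A8 and S100A7, and no Panc1 bar reaches -1.

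The remaining machinery of cornification was described from 5 lists that leave out the members and hold 151 genes, of which 121 were measured and 89 tested. In BxPC3, 16 of the 89 passed the limma test at a Benjamini-Hochberg adjusted p under 0.05, or 18.0% against 4.72% of all tested genes. Of these 12 fell and 4 rose, against 3.58% and 1.14% of tested genes. The lists were chosen with earlier results of these data known. Among marker lists, 4 of 9 tested duct, 0 of 4 fibroblast, 1 of 6 immune and 1 of 6 endothelial markers fell. The median over the 89 genes was 0.01 and over all tested genes 0.00, so most of the lists did not shift with the SPRR genes. Leaving out single arrays moved the count, to 3 without control array 1 (PI3, ABCA12 and ZNF750), 2 without control array 2 (PI3 and ABCA12), 11 without knockout array 2 and 17 without knockout array 1.

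Among 12 tested envelope precursors 4 fell. PI3, which encodes the transglutaminase substrate and elastase inhibitor elafin, read 10.89 and 10.86 in control and 8.99 and 8.77 in knockout cells. It fell by 2.00 on the log2 scale, with an SE of 0.09 (adjusted p = 0.00218), and its other probe set gave -1.98. CRNN, the cornulin gene of squamous epithelium, fell by 0.83 on the log2 scale (adjusted p = 0.0258). SCEL (sciellin) fell by 0.52 (adjusted p = 0.0437) and CSTA (the protease inhibitor cystatin A) by 0.41 (adjusted p = 0.0400). These calls held in 8 of 15 alternatives each, with adjusted p up to 0.344 for SCEL and 0.435 for CSTA, and were lost with no brightness filter (0.0820 for both). The large linker proteins periplakin and envoplakin did not pass, with PPL at 0.03 ± 0.07 (adjusted p = 0.857) and EVPL at -0.01 ± 0.08 (adjusted p = 0.950). LORICRIN, FLG and most late envelope genes that were measured did not pass the brightness filter.

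Of 26 tested enzymes of crosslinking, barrier lipids and shedding, 3 fell. ABCA12, the lipid transporter of lamellar granules, read 5.49 and 5.33 in control and 3.91 and 4.06 in knockout cells, a difference of -1.42 ± 0.09 (adjusted p = 0.00427). ABCA12 passed the filter through the BxPC3 control arrays alone, and kept its limma call with no filter (adjusted p = 0.00968). NIPAL4, a membrane protein needed for the epidermal lipid barrier, fell by 0.93 (adjusted p = 0.00820), and CST6, which encodes a cystatin that restrains cathepsins in the epidermis, by 0.45 (adjusted p = 0.0475). The CST6 call held in 4 of 15 alternatives, with adjusted p up to 0.374. CST6 was below the array median on every BxPC3 array and passed the filter through Panc1 alone. Its other, dim probe set gave -0.13. The other transglutaminases tested, TGM2 (-0.27 ± 0.07, adjusted p = 0.114), TGM5 (-0.05 ± 0.07, adjusted p = 0.714) and TGM6 (0.37 ± 0.16, adjusted p = 0.296), did not pass. The keratins of stratified layers went in both directions. Of 8 tested, KRT23 (-1.27 ± 0.10, adjusted p = 0.00602) and KRT16 (-0.53 ± 0.07, adjusted p = 0.0237) fell, the KRT16 call holding in 9 of 15 alternatives (adjusted p up to 0.266). KRT13, the suprabasal keratin of internal linings, rose from 10.57 and 10.56 to 11.54 and 11.32, by 0.87 ± 0.09 (adjusted p = 0.0136). None of the 10 tested desmosomal genes passed in BxPC3 by limma, while 3 had an unadjusted p under 0.05, namely PKP2 (0.00278), DSC3 (0.00918) and DSC2 (0.0440).

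Among 33 tested regulators of keratinocyte differentiation 3 fell and 3 rose. ZNF750, an epidermal differentiation factor, read 6.23 and 6.38 in control and 4.71 and 4.31 in knockout cells, a difference of -1.79 ± 0.15 (adjusted p = 0.00742). MAF fell by 1.05 (adjusted p = 0.0187), with 5 dim other probe sets that gave -0.67 to 0.03, and VDR, the vitamin D receptor, by 0.42 (adjusted p = 0.0345), with others at -0.44 to 0.00. ZNF750 and MAF passed the filter through the BxPC3 control arrays alone. With no filter both kept their limma call (adjusted p = 0.0150 and 0.0356). The VDR call held in 7 of 15 alternatives (adjusted p up to 0.393) and was lost with no brightness filter (0.0711). The AP-1 subunit genes FOS (0.62 ± 0.08, adjusted p = 0.0240) and FOSB (0.98 ± 0.11, adjusted p = 0.0136) rose. GATA3, named after its value was seen to complete the count, rose by 0.78 (adjusted p = 0.0372). KLF4 (-0.11 ± 0.08, adjusted p = 0.533) and the grainyhead factor GRHL3 (-0.35 ± 0.12, adjusted p = 0.209) did not pass.

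In Panc1, 6 of the 89 genes were at least 2-fold apart, 6.74% against 3.86% of tested genes. Of these, 5 were lower and 1 higher on the knockout array, and 3 and 2 with each array centred on the median of its tested genes, which raises all Panc1 differences by 0.20. KLF4 read 7.40 in control and 3.67 in knockout cells (-3.73), although its other probe set gave -0.24. DSP, the desmosomal linker desmoplakin, read 9.71 and 6.43 (-3.28). CSTA differed by -1.25 but was below the array median on both Panc1 arrays (4.59 and 3.34). TGM2 differed by -1.16 with other probe sets at -0.63 to 0.22, and ANXA1 by -1.04 with another at -0.10. DSC2, a desmosomal cadherin, was higher by 1.65, with other probe sets at 1.50, 1.49 and 0.17.

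The BxPC3 and Panc1 differences of the list genes were compared in the same limma fit as an interaction, on the assumption that Panc1 arrays vary like BxPC3 arrays. Of the 89 genes, 25 passed, or 28.1% against 14.0% of tested genes, with 14 lower in BxPC3 than in Panc1 (4.92% of tested genes were) and 11 higher. Over all tested genes 708 of the 2008 calls were lower and the rest higher. Centring the arrays gave 24 lower and 10 higher, and raised the calls over all tested genes from 2008 to 2987. The 4 with the smallest adjusted p were KLF4 (3.62 ± 0.14), DSP (3.18 ± 0.13), PI3 (-2.10 ± 0.16) and ABCA12 (-1.63 ± 0.16), with adjusted p between 0.00342 and 0.00900. With all probe sets of a gene averaged, the KLF4 value was 1.89. PI3 (4.50 and 4.59) and ABCA12 (2.11 and 2.31) were below the median of both Panc1 arrays and passed the filter through BxPC3 alone, so a fall in Panc1 could hardly have been measured and the sign of their interaction follows from the BxPC3 fall. ZNF750, KRT23, MAF, CRNN, KRT13 and CSTA were also below both Panc1 medians and passed through BxPC3 alone. The count of 25 therefore partly repeats the BxPC3 differences. The count fell strongly without either BxPC3 control array and rose without either knockout array, and the calls over all tested genes moved with it.

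**Figure D5:**
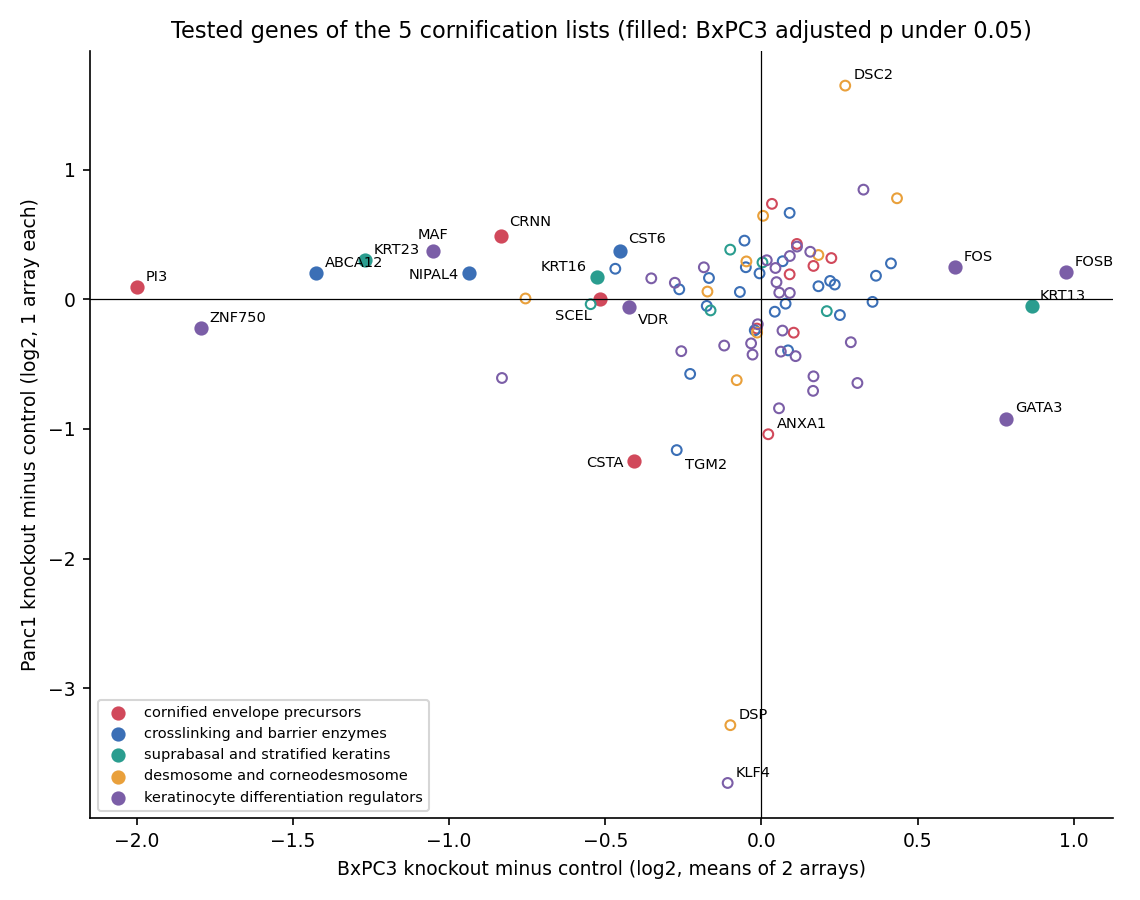
BxPC3 (x axis, means of 2 arrays) against Panc1 (y axis, 1 array each) knockout minus control differences on the log2 scale for the 89 tested genes of the 5 lists. Each point is a gene, coloured by list, and filled points passed the BxPC3 test. PI3 and ZNF750 are farthest to the left near a Panc1 difference of 0, and KLF4 and DSP lie lowest near a BxPC3 difference of 0.

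Genes whose pattern was closest to the mean pattern of the 5 SPRR members were sought by the root mean square difference from that mean. Values were centred within each line, over the 6 arrays. The mean of the members differed by -1.78 in BxPC3 and by 0.18 in Panc1. The closest, picked as the smallest distances, were SGPP2 (0.06), CYP24A1 (0.07), RADX (0.10), GULP1 (0.10), APOBEC3G (0.10) and GJA1 (0.11). The SPRR members themselves lay at 0.19 to 0.35 from their mean. In BxPC3 that mean fell in the gap between the ranges of difference described above, so no SPRR member had its value. Closeness to the mean therefore does not show likeness to any SPRR gene. GJA1, the gap junction protein connexin 43, read 10.50 and 10.51 on the BxPC3 control arrays and 8.81 and 8.71 on the knockout arrays, and CYP24A1, the vitamin D 24-hydroxylase gene, read 5.72 and 5.75 and then 4.09 and 4.06. All 6 genes were picked for closeness to the mean, so their differences carry no test. Centring removes the level. In Panc1, RADX (7.53 and 7.61), GULP1 (9.21 and 9.43), APOBEC3G (6.51 and 6.36) and GJA1 (7.34 and 7.16) exceeded the array medians. SGPP2 and CYP24A1 did not, nor did most SPRR probe sets. In BxPC3 other probe sets gave 0.01 for RADX, -0.03 for APOBEC3G, -1.44 to 0.32 for GULP1, and -1.08 and -1.23 for SGPP2.

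The labelled cell type was checked on markers. Of 10 measured duct markers, 9 exceeded the array median on both BxPC3 control arrays, 7 on both knockout arrays, 8 on the Panc1 control and 7 on the Panc1 knockout array. In BxPC3, 4 of the 9 tested fell, namely SOX9 (-0.97), MUC1 (-1.26), CA2 (-3.21) and SPP1 (-2.69), against 3.58% of all tested genes. SPP1 passed the filter through the BxPC3 control arrays alone. The mean level of the duct list was 9.72 and 9.74 on the control and 8.96 and 8.84 on the knockout arrays. Markers of other cell types had mean levels near or below the array median, at 4.36 to 4.71 for fibroblasts, 4.34 to 4.44 for immune cells and 4.22 to 4.47 for endothelium on the BxPC3 arrays. On the Panc1 arrays they were 4.15 and 4.44, 4.23 and 4.31, and 4.13 and 4.30. Of 16 tested in all, CDH5 (6.74 and 6.91 to 4.86 and 4.41) and CD14 (5.36 and 5.28 to 4.85 and 4.93) fell in BxPC3, against the same 3.58%. CDH5 also passed the filter through the BxPC3 control arrays alone. None of the 4 tested fibroblast markers passed, at an adjusted or an unadjusted p under 0.05. Of those below the filter, LUM read 4.56 on both BxPC3 control arrays and 2.45 and 2.85 on the knockout arrays (-1.91), and COL3A1 differed by -0.62. The part of these markers in the SPRR differences was not tested.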

How the data were processed

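Per the submitters' processing notes, the deposited log2 values came from RMA (affy), which corrects background, equalises array distributions and summarises probe sets, and so hides shifts common to most genes. The affy version is not given in the sources used here. The number of arrays limits the precision. Symbols came from the platform annotation (41091 probe sets with 1 symbol, 1801 with several, 11721 with none), of which only the first were used. Each gene was represented by its brightest probe set over 6 arrays and tested if above the array median on at least 1, leaving 14387 of 19775 genes.

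Differences were tested with limma 3.58.1 in R 4.3.3, with 1 mean for each of the 4 groups, eBayes and Benjamini-Hochberg adjustment over all tested genes at 0.05. The fit had 2 residual degrees of freedom, from BxPC3 alone. The steps were tested on simulated data. Members' own differences have a plain SE and no test.

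The members and lists were chosen with earlier results of these data known. Genes named were all members, up to 5 BxPC3 calls per list by p, up to 3 Panc1 differences of 2-fold per list, 4 by interaction, 6 by likeness and 4 of the complex by size. Others named complete a count or a family and were chosen after their values were seen. Alternatives covered filter, probe set choice, scaling, variance prior, replicate block and single arrays. Same-numbered BxPC3 arrays did not deviate together (correlation of deviations -0.17), so the numbers were not used as pairs.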

Additional observations from a re-analysis of the deposited data

Results flagged for a closer look

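The difference between the lines' knockout effects (BxPC3 difference minus Panc1 difference, log2) passed the limma interaction test for the following list genes that the naming rule gives. It was above 0 for KLF4 (3.62), DSP (3.18), ANXA1 (1.06), KRT13 (0.92), TGM2 (0.89) and CSTA (0.84). It was below 0 for PI3 (-2.10), ABCA12 (-1.63), ZNF750 (-1.57), KRT23 (-1.57), MAF (-1.42), DSC2 (-1.38), CRNN (-1.32), NIPAL4 (-1.14), CST6 (-0.83) and KRT16 (-0.70). Adjusted p lay between 0.00342 and 0.0284. Among list genes named besides, it passed for GATA3 (1.70), PPL (-0.70) and TGM5 (-0.51), with adjusted p between 0.0147 and 0.0473. With all probe sets of a gene averaged, the value was 0.25 for TGM2 (adjusted p = 0.199, no longer past the threshold), 1.89 for KLF4 and 0.63 for ANXA1. PI3, ABCA12, ZNF750, KRT23, MAF, CRNN, KRT13 and CSTA were below the array median on both Panc1 arrays and passed the filter through BxPC3 alone. Each value rests on 1 Panc1 array per group.

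For 5 members both BxPC3 knockout arrays lay below both controls while the Panc1 knockout array lay above its control, and this opposition was not tested. The BxPC3 part alone held for 26.8% of all tested genes. The share with both parts was not counted, so nothing is read from the 5. The BxPC3 difference minus the Panc1 difference was -2.86 for SPRR3, -1.16 for SPRR1A, -1.16 for SPRR1B, -0.51 for IVL and -0.27 for TGM1. SPRR3, SPRR1B and IVL were below the median of both Panc1 arrays, where a fall could hardly have been measured. On its other probe set SPRR3 differed by only 0.06 in Panc1. The BxPC3 groups of TGM1 were separated by 0.05, less than the 0.07 between its control arrays. Each Panc1 value rests on 1 array per group.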

How the results depend on the processing

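Over the alternatives, which change the filter, probe set choice, scaling or arrays used, the BxPC3 differences of the 5 SPRR members stayed below 0, from -2.64 to -2.29 for SPRR2B, -2.46 to -2.24 for SPRR3, -2.31 to -1.94 for SPRR2C, -1.09 to -0.96 for SPRR1A and -0.95 to -0.89 for SPRR1B. IVL ranged from -0.41 to -0.28 and TGM1 from -0.12 to -0.05, while CNFN took both signs (-0.05 to 0.16). In Panc1, SPRR2B (-0.14 to 0.20) and SPRR2C (-0.13 to 0.20) took both signs. The members' Panc1 median of 0.17 became 0.10 with quantile normalization, 0.068 with cyclic loess and 0.36 with centred arrays. Calls over all genes in BxPC3, 679 in the fit reported, were 445 with no brightness filter and 1317 with a variance prior following expression. With the replicate block they were 384, and the list counts were 10 of 89 in BxPC3 and 13 for the interaction. With crossed numbers, an alternative chosen after seeing the data because the same-numbered arrays deviated in opposite directions, they were 455, 9 and 19. Leaving out 1 BxPC3 array gave 89 to 610 calls over all genes, 2 to 17 list genes and 4 to 38 list genes for the interaction. PI3 and ABCA12 kept their BxPC3 and interaction calls under every alternative run. Where recomputed, list genes named by rule with a call kept their direction, with no value for MAF when all probe sets were averaged. Genes of the complex, GATA3 and the marker genes were not recomputed singly. With 2 arrays per BxPC3 group and 1 per Panc1 group, and dim Panc1 signals, small differences cannot be resolved.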

Other observations

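FLG, which encodes the epidermal barrier protein filaggrin, did not pass the brightness filter and was not tested. It read 5.02 and 4.81 on the BxPC3 control arrays and 4.07 and 4.14 on the knockout arrays, and 2.37 on both Panc1 arrays. Besides FLG, 3 list genes had sizeable BxPC3 differences on their brightest probe set that missed the limma threshold. PKP2, a desmosomal plaque gene, differed by -0.76 ± 0.14 (adjusted p = 0.0551), KRT4, the mucosal keratin partner of KRT13, by -0.55 ± 0.11 (adjusted p = 0.0720) and GRHL1, a grainyhead factor of desmosomal genes, by -0.83 ± 0.17 (adjusted p = 0.0747). These genes were chosen after their values were seen.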
